A study of Mus musculus with 9 samples.

Results

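Sites bound by RelA and RelB within 50 kb of the start sites of 9 genes of the TNF receptor complex and its relatives were collected from ChIP-seq peak lists of mouse embryonic fibroblasts (MEFs). The genes were *Traf1*, *Traf2*, *Traf3*, *Traf5*, *Traf6*, *Birc2*, *Birc3*, *Ripk1* and *Ripk2*, chosen by name for their place in the pathway. Earlier results of these data were known when they were chosen. Counts of these genes are therefore description, also where a share of all genes stands beside them. A peak was taken when its centre lay within that distance of the 5' end of the gene in mm9, and peaks of different libraries that overlapped by at least 1 bp were joined into 1 site. This gave 26 sites built from 62 peaks, out of 15069 sites and 25055 peaks in the 8 lists. *Birc2* and *Birc3* are neighbours on chromosome 9, and their 3 sites were given to both genes.

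All cells were NfkB2-/- MEFs, which lack p100 and p52, the products of *Nfkb2*, so that no comparison with wild-type cells was possible here. They had been immortalized by the 3T3 protocol. ChIP was done with antibodies against RelA (sc-372, called p65 in the sample labels) or RelB (sc-226), before treatment (0 h) and after 6 h with 10 ng/ml TNF, as pairs of replicate libraries, and 1 input library was combined from both replicates. Whether the replicates came from separate cultures is not stated, so p-values measure only the spread between these libraries, which may be technical. Peak lists hold no expression values, and neither the fibroblast identity nor the loss of *Nfkb2* was checked.

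The lists at 6 h held between 5192 and 7052 peaks per library, with 120352 to 162105 reads inside them, whereas those at 0 h held 182 and 194 peaks for RelA and 35 and 14 for RelB. No listed peak had fewer than 10 ChIP reads. The total number of reads is unknown, so a site missing from a list was not called at that depth and is not shown to be unbound.

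TNF gathers TRADD, RIPK1, TRAF2 and the ubiquitin ligases cIAP1 and cIAP2 (encoded by *Birc2* and *Birc3*) at its receptor, and ubiquitin chains built there activate the kinase IKK and so NF-κB. In resting cells TRAF2, TRAF3 and the cIAPs together keep the kinase NIK degraded, which holds the non-canonical pathway off. NF-κB dimers in turn bind the κB elements of many genes of these pathways, some of which encode proteins that feed back on the signal.

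The sequences under the sites that carried the strongest or most distinctive signal are shown first, from the plus strand of mm9, with matches to the κB consensus in capitals and the rest in lower case. A match is a description of the letters and not evidence of binding. The *Traf2* intron site is shown because it alone among the 26 was called before treatment (chr2:25389841-25389990), the *Ripk2* near site because it was the strongest (chr4:16095759-16095871), and the *Birc2* upstream site because it carries the same κB decamer in 2 copies (chr9:7838147-7838296). The *Ripk2* far site (chr4:16126043-16126192) is set beside the near one because 1 decamer, GGGAATTTCC, is common to both. It is read on the minus strand at the far site, and at the near site it runs past the end of the stretch printed.
Traf2 intron site: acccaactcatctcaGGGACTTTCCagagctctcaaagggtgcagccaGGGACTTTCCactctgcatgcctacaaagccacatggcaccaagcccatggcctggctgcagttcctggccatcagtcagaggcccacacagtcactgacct
Ripk2 near site: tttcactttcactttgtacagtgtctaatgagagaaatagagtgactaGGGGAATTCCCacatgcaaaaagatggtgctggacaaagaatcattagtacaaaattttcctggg
Birc2 upstream site: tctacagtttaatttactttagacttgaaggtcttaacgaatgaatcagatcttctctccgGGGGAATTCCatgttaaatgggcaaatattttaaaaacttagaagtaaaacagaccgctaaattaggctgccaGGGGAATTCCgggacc
Ripk2 far site: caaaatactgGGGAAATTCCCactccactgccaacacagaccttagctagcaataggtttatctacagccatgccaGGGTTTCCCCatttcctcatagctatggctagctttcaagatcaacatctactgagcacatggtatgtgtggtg

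For the sites at gene starts, where the match lies in or beside an untranslated region, only the match with 10 bases on either side is given, again from the plus strand. Of the 3 matches within 100 bp of the centre of the *Traf3* start site, the 2 whose decamers recur at other sites are given, at chr12:112404561-112404590 and chr12:112404659-112404688, and the *Birc3* first-exon site has its matches at chr9:7873005-7873034 and chr9:7873066-7873095. A further match of the *Ripk2* near site, which runs past the end of the stretch printed above (chr4:16095859-16095888), and the match of the *Traf5* intron site (chr1:193896452-193896481) are set beside them to show how the letters between the G and C runs vary.
Traf3 start, first match: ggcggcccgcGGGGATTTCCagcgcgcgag
Traf3 start, second match: cagcccagcaGGGACTTTCCagccggcggc
Birc3 first exon, first match: ccagggctccGGGGAACTCCagggtgaaaa
Birc3 first exon, second match: caccctggctGGGGATTTCCgtggctcttc
Ripk2 near site, further match: aaattttcctGGGAATTTCCattttcctgt
Traf5 intron site: ctcctttccaGGGAAATCCCtggcctgaga

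After 6 h of TNF, sites called in all 4 libraries lay near 6 of the 9 genes, namely *Traf1*, *Traf2*, *Traf3*, *Birc2*, *Birc3* and *Ripk2*. There were 9 such sites, with log2 folds over input between 2.01 and 5.64 and between 12 and 150 ChIP reads per peak. No site of that kind lay within 50 kb of *Traf5*, *Traf6* or *Ripk1*. Of all 37310 annotated genes, 8.88% had a site called in all 4 libraries within the same distance. *Traf1*, *Traf2*, *Birc2*, *Birc3* and *Ripk2* each had 2 (1.19% of all genes had at least 2), but *Birc2* and *Birc3* have theirs in common.

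By antibody, 6 of the 9 genes had a site called in both RelA libraries (12.6% of all genes) and 7 had one called in both RelB libraries (13.5%), the additional gene being *Traf5*. All 9 had at least 1 peak in some library at 6 h, as did 39.6% of all genes. At 0 h only *Traf2* had a peak in any list, against 1.20% of all genes.

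**Figure D1:**
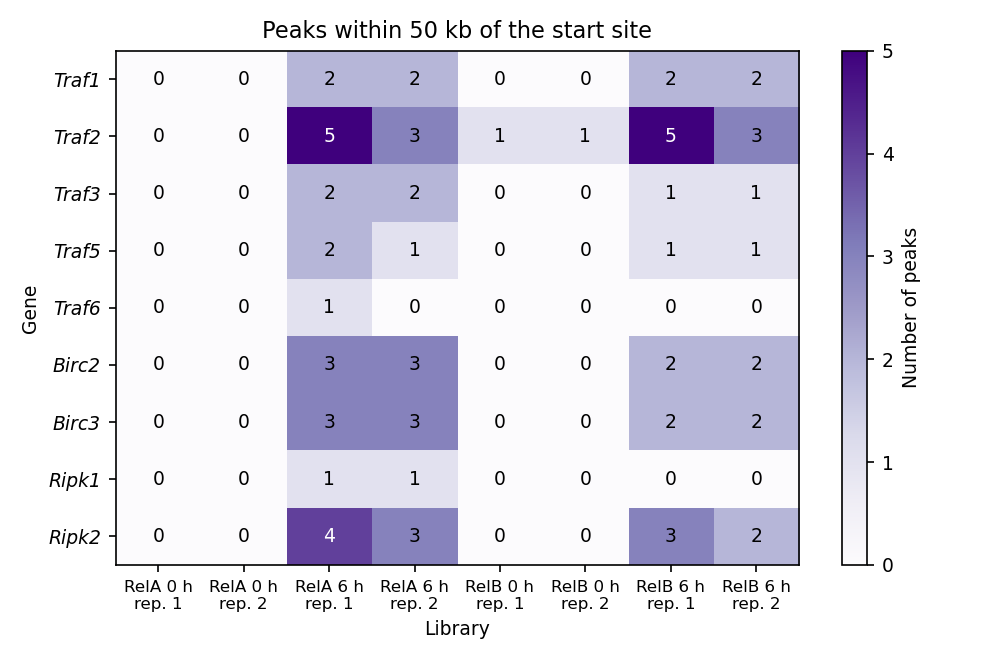
Number of peaks within 50 kb of the start of each gene (rows) in each of the 8 libraries (columns), with darker cells for more peaks and the number printed in the cell. The 0 h columns hold only 0 except for 1 peak near *Traf2* in each RelB library, and *Traf6* and *Ripk1* have peaks in RelA libraries only, at most 1 in each.

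**Figure D2:**
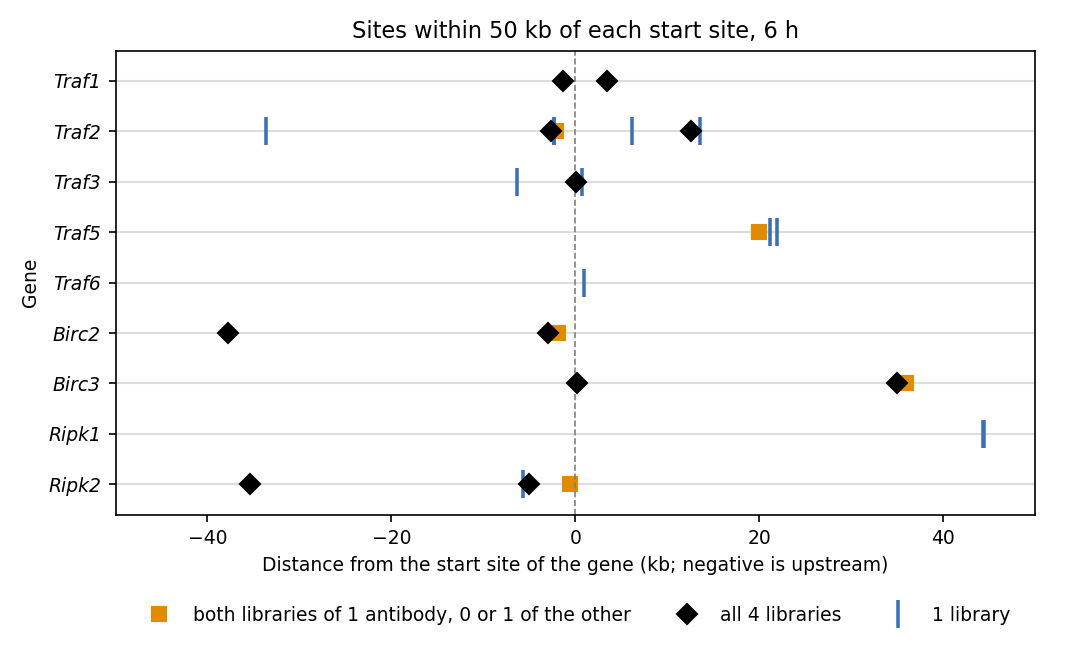
Position of the sites relative to the start of each gene, in kb along the direction of transcription, with 1 row per gene and black diamonds for sites called in all 4 libraries at 6 h, orange squares for those in both libraries of 1 antibody and at most 1 of the other, and blue bars for those in 1 library. Of the 9 sites called in all 4 libraries, 6 lie within 5 kb of a member's start, and the pair of *Ripk1* sites, 42 bp apart, falls on nearly the same place.

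TRAF2 is the adaptor that brings the cIAPs to TNF receptors, and its gene (chr2:25373502-25402460, minus strand) had the most sites, 8, of which 2 were called in all 4 libraries at 6 h. The stronger lay in an intron 12544 bp downstream of the start (chr2:25389435-25390490). The nearest annotated start was that of the pseudogene *Gm13433*, 9082 bp away. In all, 11 genes other than *Traf2*, 7 of them protein-coding, had their start within 50 kb of the site. At 6 h the log2 fold of the site was 5.02 and 4.57 in the RelA libraries, with 75 and 112 ChIP reads. In the RelB libraries it was 5.41 and 5.42, with 141 and 150 reads. Both RelB values were above both RelA values. The RelA minus RelB difference was -0.54 on the log2 scale after each library was centred on its median (SE 0.28, adjusted p = 0.358 with limma), and its 95% interval ran from -1.15 to 0.07. The difference was -0.34 without RelA replicate 2, -0.74 without RelA replicate 1 and -0.58 with edgeR. The edgeR test gave an unadjusted p of 0.00306 and an adjusted p of 0.0797. By mean log2 fold over the 4 libraries the site ranked 4 among the 1860 sites called in all of them, 21 by RelA alone and 2 by RelB alone.

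The same *Traf2* intron site was the only one of the 26 called at 0 h, in both RelB libraries and in neither RelA library. The log2 folds were 3.62 and 3.71, with 36 and 29 ChIP reads and false discovery rates (FDR) of 2e-06 and 1e-06. The fullest window held 20 and 22 reads at 0 h and 72 and 64 at 6 h. Total reads per library are unknown, so these counts are not on 1 scale. Both RelB log2 folds at 6 h lay above both at 0 h, with means of 5.42 ± 0.0067 and 3.66 ± 0.063 (SD, n = 2), a rise of 1.75. With 2 libraries a time point no exact test could reach p = 0.05, and none was run. In the whole genome only 4 sites were called in both RelB libraries at 0 h. Of these, 3 were also called in both RelB libraries at 6 h, and the *Traf2* site was the 1 whose 6 h folds both exceeded its 0 h folds. By fold it ranked 2 of 35 peaks in RelB replicate 1 and 1 of 14 in RelB replicate 2 at 0 h.

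The *Traf2* upstream site lay 2656 bp before the start in intergenic DNA (chr2:25404874-25405334). Its log2 fold was 3.40 and 3.58 for RelA, with 18 and 26 ChIP reads, and 3.91 and 2.98 for RelB, with 31 and 22 reads. The FDR was 0.0314 in RelA replicate 2 and 0.0349 in RelB replicate 2. The RelA values fell between those of RelB. The difference was 0.13 (SE 0.34, adjusted p = 0.874 with limma, 95% interval from -0.61 to 0.88). A weaker site beside it, 2042 bp upstream (chr2:25404245-25404671), reached the lists of both RelA libraries (2.56 and 2.22) and of RelB replicate 1 (2.13). The remaining 5 *Traf2* sites were each called in 1 library. Neighbouring peaks between 2042 and 2656 bp upstream of the start counted as separate sites because they did not overlap. Joining centres within 500 bp turned the 26 sites of all genes into 22.

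TRAF1 has no RING domain and pairs with TRAF2, and *Traf1* (chr2:34797270-34817292, minus strand) had 2 sites, both called in all 4 libraries. The *Traf1* intron site, 3468 bp downstream of the start (chr2:34813659-34813928), reached 3.61 and 2.49 on the log2 scale with RelA, from 56 and 24 ChIP reads, and 2.97 and 2.90 with RelB, from 35 and 20 reads. The RelB values lay between the RelA values, and the difference was 0.20 (SE 0.35, adjusted p = 0.808 with limma, 95% interval from -0.57 to 0.98). The *Traf1* upstream site, 1379 bp before the start (chr2:34818533-34818955), gave 2.89 and 2.01 for RelA, with 33 and 12 reads, and 3.38 and 3.23 for RelB, with 43 and 48 reads. Here both RelB values were above both RelA values, and the FDR in RelA replicate 2 was 0.069. The difference of -0.77 (SE 0.32, unadjusted p = 0.0347 with limma, 95% interval from -1.48 to -0.07) had an adjusted p of 0.257. It was -0.36 without RelA replicate 2, -1.19 without RelA replicate 1 and -0.47 with edgeR.

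TRAF3 bridges NIK to TRAF2 and the cIAPs, and *Traf3* (chr12:112404581-112505364, plus strand) was the gene whose site lay on its start. The *Traf3* start site, centred 75 bp downstream in the untranslated part of an exon (chr12:112404437-112405114), had RelA log2 folds of 4.25 and 3.56, with 91 and 52 ChIP reads. For RelB they were 3.12 and 2.97, with 31 and 24 reads. Both RelA values exceeded both RelB values. The difference of 0.94 (SE 0.30, unadjusted p = 0.00945 with limma, 95% interval from 0.28 to 1.60) had an adjusted p of 0.163. It was 0.62 without RelA replicate 1 and 0.50 with edgeR. The site ranked 268 of 1860 by RelA and 1163 by RelB. Another 2 sites near *Traf3* were each called in a single RelA library.

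TRAF5 resembles TRAF2 and serves TNF family receptors, and *Traf5* (chr1:193821311-193916440, minus strand) had 3 sites in its body. The 1 called in more than 1 library lay in an intron 19995 bp downstream of the start (chr1:193896247-193896799), where RelB gave log2 folds of 3.19 and 2.98, from 33 and 27 reads, and RelA replicate 1 gave 2.36, from 12 reads. It was not called in RelA replicate 2. TRAF6 is the ubiquitin ligase of interleukin-1 and Toll-like receptor signalling. *Traf6* (chr2:101518586-101541826, plus strand) had only an intron peak 988 bp downstream of its start (chr2:101519560-101519589), which RelA replicate 1 alone called, from 11 reads, at a log2 fold of 2.57 (FDR 0.0826).

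The cIAPs attach ubiquitin to RIPK1 and NIK and protect cells from TNF-induced death. *Birc2* (chr9:7818236-7835255) and *Birc3* (chr9:7848699-7873186) lie in tandem on the minus strand of chromosome 9, and their shared sites sat close to each gene's start. The *Birc3* first-exon site was centred 139 bp downstream of the *Birc3* start and 37792 bp upstream of that of *Birc2* (chr9:7872983-7873151), in sequence that is untranslated in some annotated transcripts and coding in another. Its log2 fold was 4.60 and 4.94 for RelA, with 113 and 118 ChIP reads, and 4.80 and 5.06 for RelB, with 88 and 136 reads. The antibodies overlapped, with a difference of -0.08 (SE 0.28, adjusted p = 0.919 with limma, 95% interval from -0.69 to 0.54). The site ranked 15 of 1860 by its mean.

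The *Birc2* upstream site (chr9:7838022-7838448) lay 2967 bp before the *Birc2* start and 34964 bp downstream of the *Birc3* start, past the 3' end of that gene, and was nearer still to *C330006D17Rik*, 1158 bp away. The RelA libraries gave log2 folds of 4.0 and 3.81 there, with 70 and 61 ChIP reads, and the RelB libraries 3.58 and 4.25, with 58 and 97 reads. The RelA values fell between the RelB values, and the difference was 0.07 (SE 0.30, adjusted p = 0.931 with limma, 95% interval from -0.58 to 0.72). The remaining shared site (chr9:7836942-7837262) lay 1913 bp upstream of *Birc2* but only 104 bp from the start of *C330006D17Rik*. It was the only 1 of the 26 called in both libraries of an antibody and in neither of the other. No share over all sites is given beside this count, so nothing is read from it. RelA gave log2 folds of 3.21 and 2.62 there, from 15 and 12 reads, at FDRs of 0.00657 and 0.0499. The RelA minus RelB difference cannot be given at a site without RelB values, and the counts are close to the lowest of any listed peak.

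RIPK2 is the kinase that carries signals from NOD1 and NOD2, and *Ripk2* (chr4:16049880-16090794, minus strand) had the site with the highest fold among the 9. The *Ripk2* near site (chr4:16095759-16095871) lay 5011 bp upstream of the start, in an intron of the noncoding gene *A530072M11Rik*. Its log2 fold was 5.64 and 5.55 for RelA, with 101 and 96 ChIP reads, and 5.0 and 5.09 for RelB, with 54 and 67 reads. Every RelA value was above every RelB value. The difference of 0.64 (SE 0.26, unadjusted p = 0.0340 with limma, 95% interval from 0.06 to 1.22) had an adjusted p of 0.257. The site ranked 2 of 1860 by its mean and by RelA, and 8 by RelB.

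The *Ripk2* far site, 35324 bp upstream in the same noncoding gene (chr4:16125628-16126552), reached 4.19 and 4.17 on the log2 scale with RelA, from 64 and 80 reads, and 3.80 and 3.08 with RelB, from 42 and 58 reads. RelA was again higher in both libraries. The difference after centring was 0.82 (SE 0.31, unadjusted p = 0.0226 with limma, 95% interval from 0.14 to 1.51), at an adjusted p of 0.224. The difference was 0.44 without RelB replicate 2 and 0.54 with edgeR. One more site, 525 bp upstream of *Ripk2* and 62 bp into *A530072M11Rik* (chr4:16091223-16091578), reached the lists of both RelA libraries (2.99 and 3.17) and of RelB replicate 1 (2.38).

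RIPK1 is the kinase on which the TNF receptor complex decides between survival and death, and *Ripk1* (chr13:34094232-34127039, plus strand) had only weak peaks at the far edge of the distance. RelA replicate 2 had a peak 44325 bp downstream of its start (chr13:34138491-34138623, log2 fold 2.12, 20 reads) and RelA replicate 1 had one at 44448 bp (chr13:34138666-34138694, 2.25, 23 reads). Both lay in *Bphl*, and 42 bp separated them, so that they counted as different sites. Just outside the distance, 64168 bp downstream, a site was called in all 4 libraries at 6 h (chr13:34158345-34158458), where RelA reached 2.36 and 2.83 and RelB 2.13 and 2.45 on the log2 scale, from 11 to 24 reads.

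**Figure D3:**
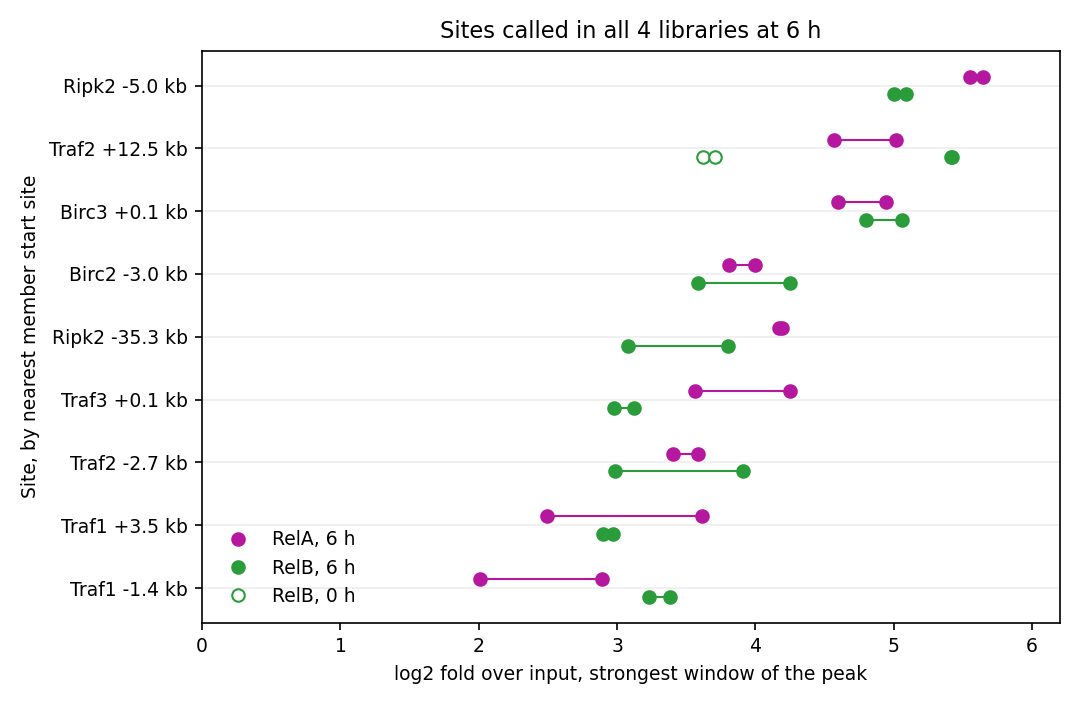
Log2 fold over input (horizontal axis) of the 9 sites called in all 4 libraries at 6 h (rows, named by distance from the nearest member start), with 1 point per library, a colour for each antibody, lines that join replicates, and open points for the *Traf2* intron site at 0 h. The *Ripk2* near site has the highest RelA points (5.64 and 5.55) and the *Traf2* intron site the highest RelB points (5.41 and 5.42, which lie on each other).

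Of the 9 sites, 5 had RelA and RelB values, taken before centring, that did not overlap. At 3 of them RelA was higher (*Traf3* and both *Ripk2* sites), as at 19.2% of all 1860 sites called in all 4 libraries, and at 2 RelB was higher (the *Traf2* intron and *Traf1* upstream sites), as at 29.5%. None passed an adjusted p of 0.05 in limma, and 4 had an unadjusted p under it. These 4 rest on 2 libraries an antibody, and their differences with 1 library left out are given further below. Over all 1860 sites called in all 4 libraries, 11 passed (0.591%) and 313 had an unadjusted p under 0.05. With edgeR's quasi-likelihood test on the reads of the fullest window none of the 9 passed either, beside 43 of the 1860. An unadjusted p under 0.05 was found with edgeR at 3 of the 9 (the *Traf2* intron and both *Ripk2* sites), beside 253 of the 1860. The *Traf3* start and *Traf1* upstream sites were under it in limma but not in edgeR. At the 5 sites without overlap the 95% intervals include a difference of 2-fold, which is 1 on the log2 scale. For scale, the difference between replicate libraries over the 1860 sites had an SD of 0.477 for RelA and 0.459 for RelB. RelA and RelB were pulled down with different antibodies, and how well each works was not compared.

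**Figure D4:**
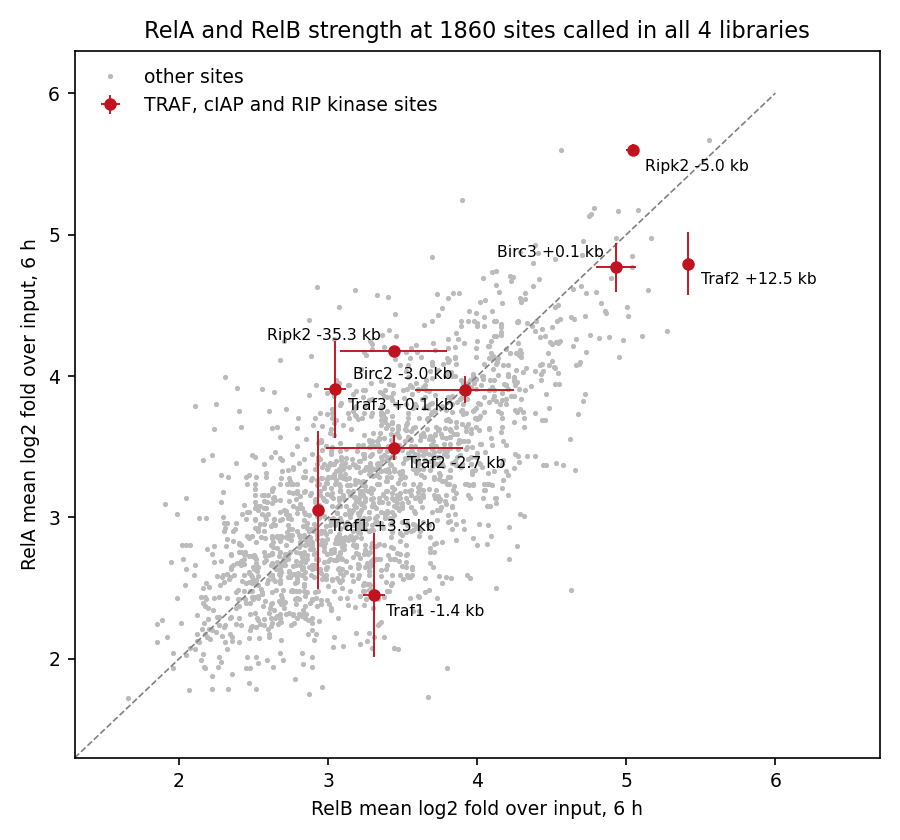
Mean log2 fold over input of RelA (vertical axis) against RelB (horizontal axis) at 6 h for the 1860 sites called in all 4 libraries. Red points are the 9 sites near TRAF, cIAP and RIP kinase genes, red lines span both libraries of each antibody, and the dashed line marks equal folds. The *Ripk2* near site, the *Traf2* intron site and the *Birc3* first-exon site (ranks 2, 4 and 15) lie at the upper right, and the *Traf1* upstream site lies lowest for RelA.

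The 9 sites had a median mean log2 fold of 3.81, beside 3.19 over all 1860, and 7 of the 9 lay above that median. Of the 26 sites, 13 were called in a single library, 7 of them in RelA replicate 1, 3 in RelA replicate 2, 2 in RelB replicate 1 and 1 in RelB replicate 2. RelA replicate 1 also had the longest list, with 7052 peaks. The share of single-library sites over all 15069 is not given here, so nothing is read from this count. These single peaks held 11 to 23 ChIP reads (median 13) and had log2 folds from 1.74 to 3.70 (median 2.25). A member was the gene with the nearest annotated start for 11 of the 26 sites, and the lists do not show which gene a site acts on.

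The κB consensus (searched as the usual decamer, GG followed by a purine, any 3 letters, 2 pyrimidines and CC, on both strands) was found within 100 bp of the centre of 8 of the 9 sites called in all 4 libraries. It was found in 79.9% of all 1860 such sites and in 12.3% of flanking windows of the same length placed 1000 bp away. The exception was the *Traf1* upstream site, which says only that these letters are not in that window. Of the other 17 sites 6 held a match. The 79.9% covers only sites called in all 4 libraries, and no share over the other sites of the genome is given beside that count.

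Particular decamers recurred among the 9 sites called in all 4 libraries. Those given here were picked because they stand in 2 of these sites, so their recurrence is no result about these genes. GGGACTTTCC stood in 2 copies at the *Traf2* intron site, 33 bp apart from start to start, and once at the *Traf3* start site. It occurred in 11.2% of the 1860 sites and in 0.134% of the flanking windows. GGGGAATTCC stood in 2 copies at the *Birc2* upstream site, 73 bp apart, and once at the *Ripk2* near site, where an overlapping match extends it to 11 letters (6.72% of the 1860 sites, 0.161% of the flanks). The weaker *Traf2* site 2042 bp upstream of the start, which was called in fewer libraries, held it as well. The *Traf3* start and *Birc3* first-exon sites both held GGGGATTTCC (8.39% and 0.0538%). GGGAATTTCC, read on either strand, was common to both *Ripk2* sites (5.70% and 0.0806%).

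Other genes of TNF receptor signalling were counted in the same way. Of 24, 16 had a peak at 6 h (39.6% of all genes did) and 7 had a site called in all 4 libraries (8.88% of all genes). These were *Tnfaip3*, which encodes the deubiquitinase A20, with 4 such sites, *Tnfrsf1b*, the other TNF receptor, with 2, and *Tradd*, *Map3k7* (the kinase TAK1), *Map3k14* (NIK), *Cyld* (a deubiquitinase) and *Tank* (a TRAF-binding protein) with 1 each. Among 7 further genes of the TRAF, RIP kinase and IAP families, 4 had a peak at 6 h, and 1, *Birc5*, had a site called in all 4 libraries, beside the same shares of all genes. None of these 31 genes had a peak at 0 h, as against 1.20% of all genes. Nothing is read from these counts about the families.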

How the data were processed

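ChIP-seq peak lists of 8 libraries were used, 2 for each antibody (RelA, RelB) and time point (0 h, 6 h). Reads had been trimmed with cutadapt and placed on mm9 with Bowtie, of which the authors retained unique hits, and cisGenome 2.0 had called peaks library by library over NfkB2-/- input (FDR under 0.1, fold above 2). The authors deposited an FDR (q-value) for each peak, the highest log2 fold over scaled input within it, and the count of ChIP and input reads in the peak and in its fullest window. Counts were not normalized and total reads per library are unknown, so reads of different libraries are not on 1 scale and no depth limit could be given.

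Sites were merged peaks, gene starts were the 5' ends of GENCODE genes on the same build, and the κB consensus was searched in that genome. Every site called in all 4 libraries at 6 h, called at 0 h, or called in both libraries of 1 antibody and neither of the other was named. Of the rest some were named and the others summarised. Log2 folds at sites called in all 4 libraries were centred on each library's median and compared between RelA and RelB with limma 3.58.1 (Benjamini-Hochberg over all 1860 sites, adjusted p under 0.05), and edgeR 4.0.16 was run on window counts. The limma step was tested on simulated data. Members and lists were chosen with earlier results of these data known. Alternatives changed the FDR and fold thresholds, the distance, the start site, the overlap rule, the normalization, the test, the motif window and the libraries included. Python 3.11.15 and R 4.3.3 were used.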

Additional observations from a re-analysis of the deposited data

How the results depend on the processing

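Of 129 values recomputed under an alternative, 112 kept their direction and side of the threshold, or stayed within 1.5 times of the count. In this balanced design a replicate block cannot change the RelA minus RelB differences. For those values only the side of the threshold could move. The 9 sites called in all 4 libraries fell to 5 when peaks had to overlap by 30 bp, a length that peaks of 29 bp cannot reach, and *Traf2* then lost both of its sites. *Ripk1* gained such a site at 100 kb, and *Traf5* did without RelA replicate 2. The count of sites called in every library of 1 antibody and in none of the other was 1. It became 2 with FDR below 0.01, with centres within 500 bp joined or with 30 bp of overlap. With 1 library left out it was 3 to 9 (9 without RelA replicate 2), since fewer lists then had to hold the site. The 2 peaks at 0 h became 0 at 10 kb, as the *Traf2* intron site lies farther away.

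The RelA minus RelB difference changed sign only at sites where it was small. At the *Birc2* upstream site it was -0.013 without centring, and -0.24 to 0.38 with 1 library left out. At the *Traf2* upstream site it was -0.060 with edgeR and -0.35 to 0.62 with 1 library left out. Leaving out 1 library gave -0.27 to 0.12 at the *Birc3* first-exon site and -0.34 to 0.74 at the *Traf1* intron site. At the sites whose sign held, the differences with 1 library left out were -0.74 to -0.34 (*Traf2* intron), -1.19 to -0.36 (*Traf1* upstream), 0.62 to 1.26 (*Traf3* start), 0.44 to 1.21 (*Ripk2* far) and 0.61 to 0.66 (*Ripk2* near). The cause was not tested.

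None of the settings run with limma or edgeR called any of the 9 sites, of which 7 could be tested with FDR below 0.01. The *Traf2* upstream and *Traf1* upstream sites were lost at that threshold. With a replicate block 0 of the 9 and 85 of the 1860 sites were called (lowest adjusted p at the 9 sites 0.0708), but the numbers are no pairing that the labels describe, and the replicate differences of RelA and RelB correlated at -0.00256. The count over all sites was 43 with edgeR, 8 without centring, 10 after quantile normalization and 23 of 1303 with FDR below 0.01. Leaving out 1 library leaves an antibody with 1 library, so no count over all sites is given for those fits. Only 2 libraries an antibody and 11 to 23 reads in the single-library peaks limit what can be called.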
